A study of Mus musculus with 12 samples.

Results

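MPC5 is an immortalized line of mouse podocytes, the epithelial cells that wrap the glomerular capillaries of the kidney. The 6 libraries described here are all those of MPC5 cells that had received the empty vector plasmid, out of 12 libraries in the series, and were chosen by the vector label alone. The other 6 came from cells given a plasmid that overexpresses Sparc, and none of their values was used. Per the labels, the vector cells were of wild-type genotype and were collected 24 h after transfection. They were grown in DMEM with 10% fetal bovine serum at 37 °C and 5% CO2, and mRNA was taken from TRIzol extracts with polyT capture before sequencing. No untransfected library was analysed here, so what the cells express by themselves and what plasmid and transfection add cannot be told apart. MPC5 is a single line, and the labels name no differentiation step and do not say whether the 6 libraries are separate cultures. The spread between them may therefore be technical.

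A differentiated podocyte is known by a small set of molecules. Nephrin (Nphs1) and Neph1 (Kirrel) help build the slit diaphragm that bridges neighbouring foot processes, while synaptopodin (Synpo), alpha-actinin-4 (Actn4) and nestin (Nes) belong to the cytoskeleton behind it. Wt1 is the transcription factor that maintains this state, podocalyxin (Podxl) is the charged coat of the apical surface, and the cell lays down laminin and collagen IV of the glomerular basement membrane. Pax8 and Lrp2 (megalin) are classically tied to developing nephrons and to the proximal tubule. Podocyte lines in culture are known to lose part of this program, which makes a list of what MPC5 transcribes useful in itself.

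The libraries held 33051035 to 47296258 counts each, and 243907872 in all. A mean of 21797 ± 216 genes (SD, n = 6) had at least 1 count. Correlations between pairs of libraries over 14102 genes ran from 0.9946 to 0.9957 on the log2 scale. Replicate 4, the shallowest library, stood apart on the main axis of variation, where it scored 21.3 and the others between -7.09 and 0.27. That axis carried 23.2% of the variance. The separation was small in correlation: the median of replicate 4 with the others was 0.9947, and those of the rest ran from 0.9952 to 0.9955. No pair of libraries agreed within counting noise: chi-square divided by its degrees of freedom was at least 4.13 in all 15 pairs. Mitochondrial genes took 1.24% to 1.43% of the counts.

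Levels are given in FPKM, counts per kilobase of gene length and scaled to the library's total, as deposited, with the SD over 6 libraries. The authors' length for a gene equalled the mean length of its annotated transcripts in GENCODE M21, within 1 base, for 97.8% of 27391 genes. A gene with many short annotated transcripts therefore gets a high FPKM. Over genes with several transcripts, the merged exon length was a median of 2.36 times the deposited one, and orders between genes that depend on this choice are named as such. A gene counted as expressed when it reached 1 FPKM in all 6 libraries. This held for 11800 of 55487 genes, or 21.3%, and for 10474 of 21974 protein-coding genes, or 47.7%. The median level was 0.698 FPKM over protein-coding genes and 0 over all genes. Of 629 genes in 32 lists of markers and functions, 380 were expressed. The share ran from all 13 interferon signalling genes down to 2 of 20 genes of the distal nephron.

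**Figure D1:**
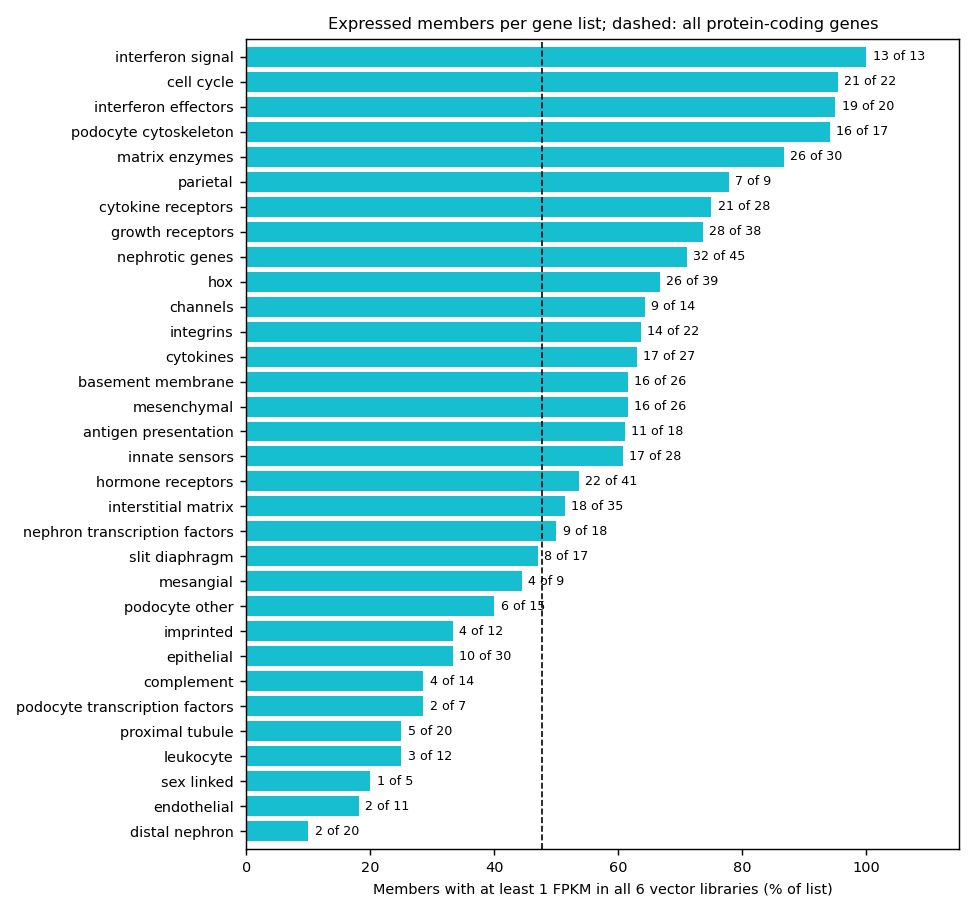
Share of the members of each gene list that reached 1 FPKM in all 6 vector libraries (horizontal axis, % of list), with the counts beside each bar. The dashed line marks 47.7%, the share over all protein-coding genes. Cell cycle, interferon and cytoskeleton lists lie above 90%, and the distal nephron, endothelial, leukocyte and proximal tubule lists lie at or below 25%.

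By the deposited FPKM, the most abundant messages were those of protein synthesis, glycolysis, chaperones and actin. Eef1a1, which carries aminoacyl-tRNA to the ribosome, stood at 10068 ± 103 FPKM, with 9942 in the lowest library, a median of 10046 and 10202 in the highest. Hsp90ab1, a cytosolic chaperone, followed at 4361 ± 29.1 FPKM and the mitochondrial oxidase subunit mt-Co1 at 4085 ± 215 FPKM. Actb (3385 ± 108 FPKM), Eef2 (2978 ± 73.0 FPKM) and the glycolytic enzyme Eno1 (2723 ± 70.7 FPKM) came next. The glycolytic enzymes Pkm and Ldha were at 2387 ± 52.2 and 1795 ± 40.6 FPKM.

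Below these, the 20 highest levels included Ptma, Actg1, Hsp90aa1, Pabpc1, Rpsa, mt-Nd1, Lgals1, Ddb1 and the ribosomal proteins Rpl6, Rpl8 and Rpl4. Vim, the intermediate filament protein vimentin, closed the 20 at 1569 ± 47.8 FPKM. The message was spread widely. The 10 genes with the most counts held 4.06% ± 0.02 of all counts, and the 100 with the most held 16.2% ± 0.05. Ribosomal protein genes took 3.39% ± 0.07.

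The order at the top leaned on the gene lengths used. With merged exon lengths, mt-Co1 at 4085 FPKM came above Eef1a1 at 3837 FPKM, and 11 of the 20 genes were shared with the deposited order. The glycolytic enzymes left the highest 20, with Pkm at 525 FPKM (rank 41), Ldha at 521 FPKM (rank 43) and Eno1 at 473 FPKM (rank 51), and Hsp90aa1 went to rank 33. Ddb1, a subunit of a ubiquitin ligase that recognises damaged DNA, is an example. Its deposited length was 1233 bases and its merged exon length 6409 bases, and its level was 1729 FPKM by the former and 333 FPKM by the latter. In counts scaled to the library's total (CPM), with no length, long genes of matrix and cytoskeleton joined the highest 20. These were Fn1 (fibronectin, 3257 CPM), Flna (filamin A, 2827 CPM) and Myh9 (non-muscle myosin IIA, 2367 CPM).

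Of the podocyte markers, Nes, Kirrel, Podxl and Synpo were expressed, whereas Nphs1 was not detected and Wt1 was near 0. Nes (chromosome 3, 87971078 to 87980451, plus strand; GENCODE M21, GRCm38) had 261 FPKM in the lowest library, a median of 270 and 274 in the highest. Kirrel (chromosome 3, 87078593 to 87174747, minus strand) ran from 69.4 to 74.7 FPKM with a median of 71.9. Podxl (chromosome 6, 31519488 to 31563981, minus strand) ran from 29.95 to 32.6 FPKM, median 30.7. Synpo (chromosome 18, 60593973 to 60660142, minus strand) ran from 21.1 to 23.7 FPKM, median 22.7. The ranges of these 4 genes did not overlap one another, and the order Nes, Kirrel, Podxl, Synpo also held with merged exon lengths, at 187, 53.6, 16.1 and 6.99 FPKM.

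Nephrin was not detected. Nphs1 (chromosome 7, 30458315 to 30487223, plus strand) had 0 counts in all 6 libraries, and so did its neighbour Kirrel2 (chromosome 7, 30447534 to 30457690, minus strand), which encodes Neph3. A count of 0 over all 6 libraries allows up to 3 counts, or 0.0123 CPM, which covers counting error only. Wt1 had 37 counts in all, at 0.0789 ± 0.0431 FPKM. The label of podocyte line is thus matched by Nes, Kirrel, Podxl and Synpo and not by Nphs1 or Wt1. In these bulk libraries, fewer cells that express a gene and less RNA per cell cannot be told apart.

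The promoters of Nphs1, which was not detected, and of Kirrel, which was expressed, differ in CpG content. They are given from RefSeq (GRCm38.p6), from 250 bases before to 50 after the start, read 5′ to 3′ on the gene's strand, with each CG pair in capitals. The Nphs1 window (chr7:30459808-30460107, plus strand) holds 6 CpG and the Kirrel window (chr3:87174488-87174787, minus strand) holds 28. The Nphs1 window lies inside the GENCODE M21 gene span given above, so RefSeq and GENCODE start this gene at different positions.
Nphs1: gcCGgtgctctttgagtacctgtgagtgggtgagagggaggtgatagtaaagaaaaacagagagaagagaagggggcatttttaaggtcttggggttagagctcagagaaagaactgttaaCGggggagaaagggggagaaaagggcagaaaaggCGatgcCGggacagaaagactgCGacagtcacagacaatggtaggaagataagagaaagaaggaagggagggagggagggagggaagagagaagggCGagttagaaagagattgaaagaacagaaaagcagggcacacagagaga
Kirrel: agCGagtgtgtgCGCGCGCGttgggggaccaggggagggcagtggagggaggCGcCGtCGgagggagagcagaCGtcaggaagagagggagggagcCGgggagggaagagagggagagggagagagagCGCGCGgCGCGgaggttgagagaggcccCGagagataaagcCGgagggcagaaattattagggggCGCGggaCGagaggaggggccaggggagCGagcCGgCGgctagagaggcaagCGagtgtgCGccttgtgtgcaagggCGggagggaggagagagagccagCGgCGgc

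The difference was also seen over many genes. Among protein-coding genes with a single window, the 6608 expressed genes had a median of 22 CpG per window and the 7226 others a median of 4. The share of expressed genes was 5.93% at 0 to 4 CpG, 23.1% at 5 to 9, 65.2% at 10 to 19, 79.4% at 20 to 29 and 81.1% at 30 or more. Single genes departed from it. Pax8, at 7 CpG, was expressed, and Trpc6, at 17 CpG, had 0 counts. Fat1, the highest of the slit diaphragm list, was expressed with 2 CpG in its window, fewer than Nphs1. The pair printed above therefore does not stand for that list. CpG number is a description of the window and was not tested as a cause.

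Of 17 slit diaphragm genes, 8 were expressed, or 47.1% beside the 47.7% of all protein-coding genes, with a list median of 1.17 FPKM. The highest were Fat1, a giant protocadherin, at 114.9 ± 2.20 FPKM, the scaffold Tjp1 (ZO-1) at 83.7 ± 1.32 FPKM and the adaptor Cd2ap at 80.5 ± 2.67 FPKM. The polarity protein Pard3 and the motor Myo1e were at 34.4 ± 0.82 and 26.0 ± 0.84 FPKM. These genes serve cell contacts and actin in many epithelia. Besides Nphs1 and Kirrel2, members below the threshold included Trpc6, a calcium channel, and Ptpro, an apical phosphatase, which had 0 counts. In addition, the phospholipase Plce1 had 39 counts in all.

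The cytoskeletal list was nearly complete, with 16 of 17 genes expressed, or 94.1% beside the 47.7% of all protein-coding genes. Its median was 46.9 FPKM. Myh9 reached 1113 ± 13.2 FPKM, Actn4 642 ± 11.98 FPKM, Arhgdia, an inhibitor of small GTPases, 361 ± 6.59 FPKM and the membrane linker Ezr 215 ± 2.26 FPKM. Kank4, with 2 counts, was the only member below the threshold. By contrast, 2 of 7 podocyte transcription factors, or 28.6%, were expressed, Foxd1 at 3.22 ± 0.27 FPKM and Foxc1 at 2.21 ± 0.08 FPKM. At a threshold of 0.5 FPKM, 4 of the 7 would pass. Foxc2 (0.862 FPKM) passed 1 FPKM in some libraries and not in others, Lmx1b had 7 counts, and Tcf21 had 0.

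Among 15 other podocyte genes, 6 were expressed, or 40% beside the 47.7% of all protein-coding genes. They were led by the secreted protease Htra1 (44.7 ± 1.54 FPKM), the membrane peptidase Mme (28.9 ± 1.74 FPKM) and the endothelial growth factor Vegfa (19.96 ± 0.75 FPKM). Pla2r1, the main autoantigen of human membranous nephropathy, had 55 counts in all.

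**Figure D2:**
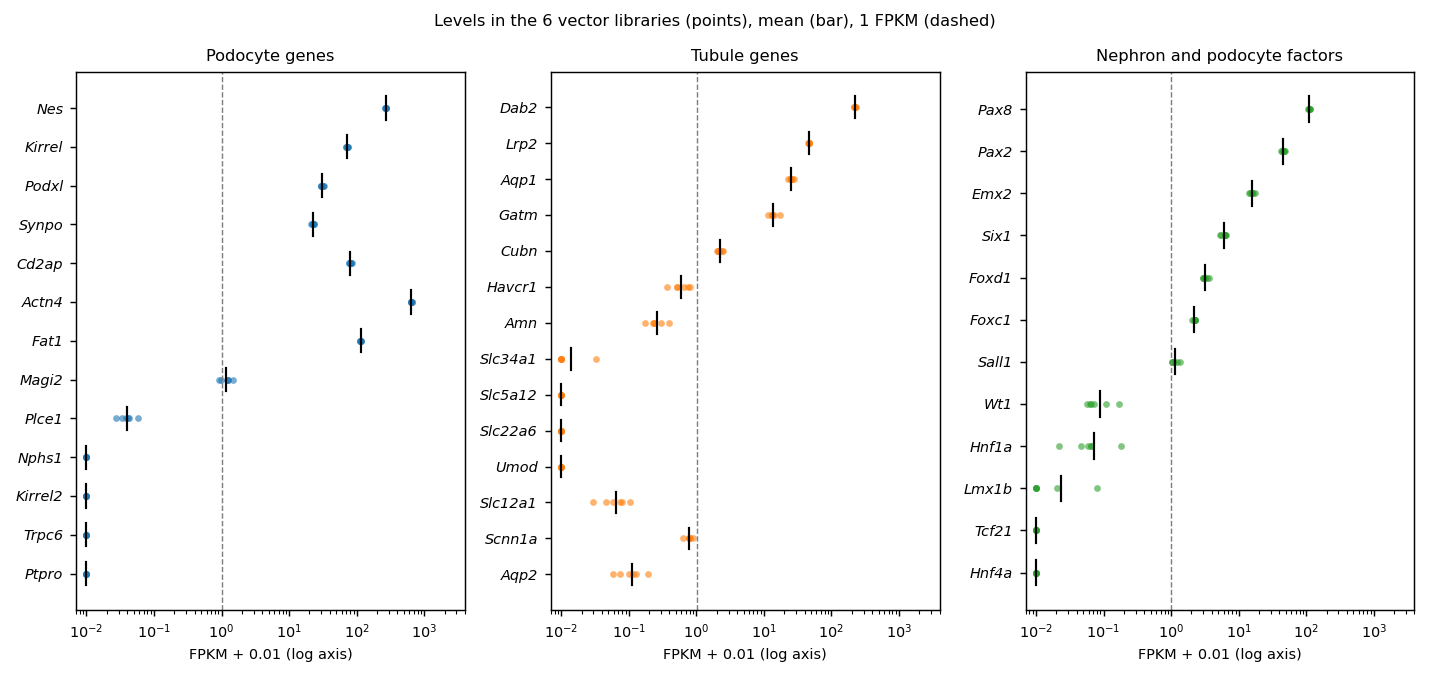
Levels (horizontal axis, FPKM + 0.01, log axis) of podocyte genes, tubule genes and transcription factors of nephron and podocyte in the 6 vector libraries. Points are libraries, short bars are means and the dashed line marks 1 FPKM. Nes, Kirrel, Podxl, Synpo, Lrp2 and Pax8 lie between 21 and 274 FPKM in every library, while Nphs1, Kirrel2, Trpc6, Ptpro, Tcf21 and Hnf4a lie at 0.

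Few tubule markers were expressed, and Lrp2 was one of them. Lrp2 (chromosome 2, 69424340 to 69586065, minus strand), the megalin receptor that takes up filtered protein, was at 45.7 FPKM in the lowest library, a median of 45.9 and 46.3 in the highest. Its adaptor Dab2 was at 222 ± 5.13 FPKM, and its partner Cubn at 2.21 ± 0.19 FPKM. Amn, which cubilin needs to reach the surface, was at 0.252 ± 0.076 FPKM and was not expressed by the threshold.

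Of 20 proximal tubule genes 5 were expressed, the others being the water channel Aqp1 at 25.2 ± 1.70 FPKM and Gatm, an enzyme of creatine synthesis, at 13.7 ± 2.00 FPKM. The list median was 0.0151 FPKM. Slc22a6, Slc22a8, Slc5a12, Slc13a3, Fbp1, Kap and the regulator Hnf4a had 0 counts in all 6 libraries, and the phosphate transporter Slc34a1 had 2. In the distal nephron list, the transcription factors Tfcp2l1 (13.7 ± 0.62 FPKM) and Gata3 (4.95 ± 0.72 FPKM) were the 2 expressed genes of 20, and 1 of 20 passed with merged exon lengths. Umod, Pvalb, Calb1 and Kcnj1 had 0 counts, and Aqp2 had 35.

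Of 18 nephron transcription factors 9 were expressed, or 50% beside the 47.7% of all protein-coding genes, with a list median of 0.778 FPKM. Pax8 (chromosome 2, 24420560 to 24475599, minus strand) had 105 FPKM in the lowest library, a median of 110 and 114 in the highest. Its exons overlap those of Gm13415, and the strand setting of the counting is not given in the sources used here. Pax2 was at 45.8 ± 2.04 FPKM and Emx2 at 15.7 ± 1.03 FPKM. Six2, a factor of nephron progenitors, had 0 counts.

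The relative order of podocyte and tubule markers depended partly on length. Pax8 stood above Kirrel with the deposited lengths (110 and 72.0 FPKM) and below it with merged exon lengths (25.7 and 53.6 FPKM). Lrp2 stood above Podxl with the deposited lengths (45.9 and 30.9 FPKM), and with merged ones the 2 levels were 15.4 and 16.1 FPKM. Lrp2 exceeded Synpo either way.

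Pax2 and Pax8 are also kept by parietal epithelial cells, which line Bowman's capsule and share an origin with podocytes. Of 9 parietal genes, 7 were expressed, or 77.8% beside the 47.7% of all protein-coding genes. Whether the cells resemble parietal cells was not tested. Cd24a was at 454 ± 18.3 FPKM, the tetraspanin Cd9 at 140 ± 4.53 FPKM, the hyaluronan receptor Cd44 at 114 ± 2.15 FPKM and the tight junction protein Cldn1 at 18.1 ± 0.77 FPKM. Prom1 had 1 count in all and Scin 18.

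The filament gene Vim and the cadherin Cdh2 stood high beside part of the tight junction machinery. No other cells were compared, so a shift toward a mesenchymal state was not tested. N-cadherin (Cdh2) had 197 FPKM in the lowest library, a median of 203 and 208 in the highest, whereas E-cadherin (Cdh1) had 14 counts over all 6 libraries. Vim ran from 1508 to 1640 FPKM. The simple-epithelium keratins Krt7, Krt8, Krt18 and Krt19 summed to 1.67 ± 0.28 FPKM, with Krt18 at 22 counts, although reads of Krt8 and Krt18 may be shared with their many pseudogenes.

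In the epithelial list 10 of 30 genes were expressed, or 33.3% beside the 47.7% of all protein-coding genes, with a median of 0.346 FPKM. These included the cell junction genes Tjp1, F11r (67.1 ± 3.29 FPKM), Jup (65.7 ± 3.499 FPKM) and Cgn (25.1 ± 0.87 FPKM). Epcam (111 counts), Ocln (101 counts), Cldn7 (10 counts) and Dsp (16 counts) stayed below the threshold, and the epithelial regulator Ovol2 and the protease St14 had 0 counts.

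In the mesenchymal list 16 of 26 were expressed, or 61.5% beside the 47.7% of all protein-coding genes, with a median of 3.44 FPKM. Fn1, at 797 ± 10.7 FPKM, came between Vim and Cdh2. The smooth muscle actin Acta2 was at 58.4 ± 1.34 FPKM and the repressor Zeb1 at 22.1 ± 0.96 FPKM. Further members ranged from Col1a1 at 16.3 ± 0.90 FPKM and Twist1 at 8.62 ± 0.27 FPKM to several near 0. Col1a2 was at 0.208 ± 0.106 FPKM and Pdgfra at 0.110 ± 0.038 FPKM, and Col3a1 had 42 counts in all. Thy1, Lum and Prrx1 had 0 counts.

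**Figure D3:**
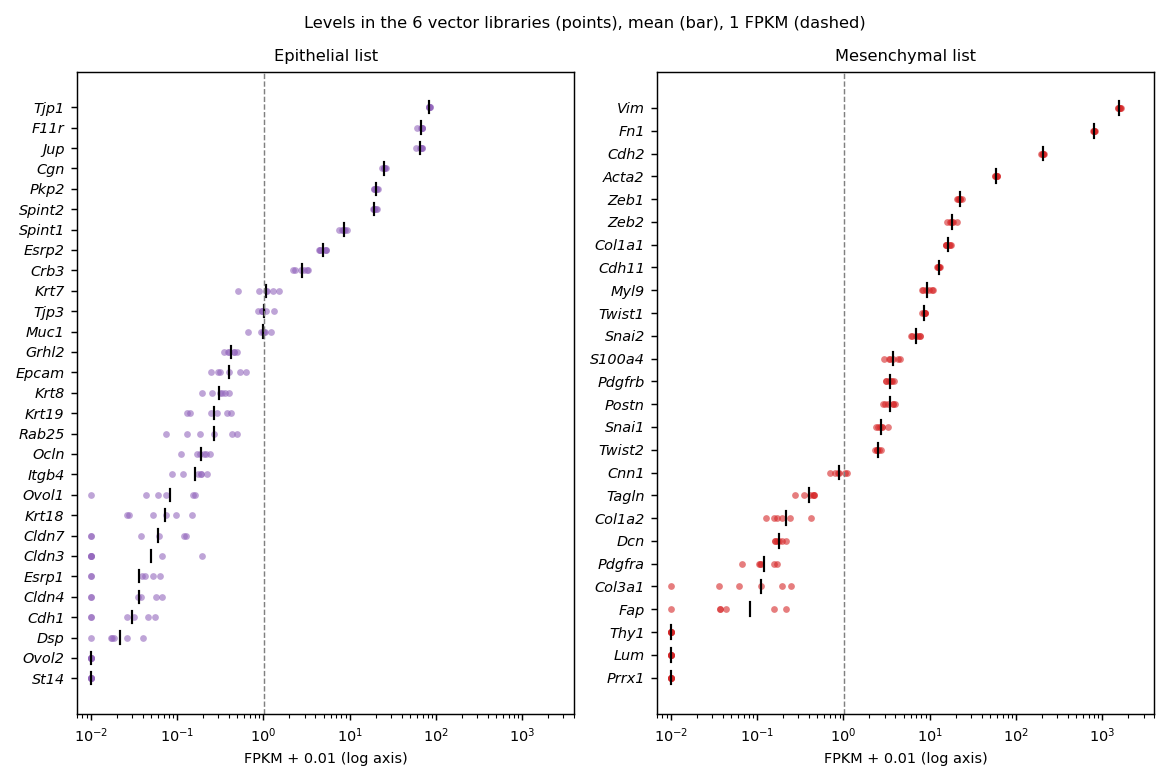
Levels (horizontal axis, FPKM + 0.01, log axis) of genes of the epithelial and mesenchymal lists in the 6 vector libraries (points; bar, mean; dashed line, 1 FPKM). Some junction genes, such as Tjp1 and F11r, lie above 10 FPKM while Cdh1, Dsp, Cldn3, Cldn4 and Cldn7 lie near 0. Vim, Fn1 and Cdh2 lead the mesenchymal list.

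Most markers of endothelial cells and leukocytes were near 0. In the endothelial list 2 of 11 were expressed, the receptor Flt1 (13.8 ± 0.57 FPKM) and Ehd3 (2.71 ± 0.15 FPKM). Pecam1 had 41 counts, Cdh5 40, and Emcn and Cldn5 had 0. In the mesangial list 4 of 9 were expressed, or 44.4% beside the 47.7% of all protein-coding genes, and 2 with merged exon lengths. Serpine2 was at 19.3 ± 1.47 FPKM and Des at 1.92 ± 0.30 FPKM, and Ren1 and Rgs5 had 0 counts. In the leukocyte list 3 of 12 were expressed, Cd68 (5.83 ± 0.95 FPKM), Cd14 (4.64 ± 0.47 FPKM) and Csf1r (4.05 ± 0.39 FPKM). The pan-leukocyte gene Ptprc had 24 counts, and Itgam, Adgre1, C1qa and Tyrobp had 0. The summed level of the leukocyte list was at least 13.9 FPKM in every library, and its defining markers were at or near 0.

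Many genes of the extracellular matrix were expressed, several of them strongly. Of 26 basement membrane genes 16 were expressed, or 61.5% beside the 47.7% of all protein-coding genes. The list median was 24.4 FPKM, and 11 of the genes had a mean of at least 100 FPKM. Sparc, a collagen-binding matricellular protein, led with 576 FPKM in the lowest library, a median of 582 and 603 in the highest. Tinagl1 was at 504 ± 12.01 FPKM, and the proteoglycans agrin (Agrn) and perlecan (Hspg2) were at 255 ± 8.31 and 231 ± 6.09 FPKM.

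The chains of laminin-α5β2γ1, the laminin of the mature glomerular membrane, were all transcribed. Lama5 was at 271 ± 7.96 FPKM, Lamb2 at 177 ± 6.55 FPKM and Lamc1 at 201 ± 2.23 FPKM. The fetal chain Lamb1 was at 172 ± 2.17 FPKM, and the fetal chain Lama1 was below the threshold at 0.365 ± 0.115 FPKM. Lamb1 and Lamb2 could not be ordered. Their difference was -0.04 ± 0.05 on the log2 scale (Lamb1 over Lamb2, higher in 2 of 6 libraries), with a p of 0.125 in an exact two-sided sign-flip permutation test. With merged exon lengths Lamb1 was higher in all 6 libraries by 0.58 on the log2 scale.

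Collagen IV transcripts were mainly those of the ubiquitous chains. Col4a1 was at 215 ± 5.63 FPKM and Col4a2 at 142 ± 1.54 FPKM. Col4a5 was at 76.2 ± 1.43 FPKM, while its partners in the mature glomerular network, Col4a3 and Col4a4, were at 0.705 ± 0.163 and 0.884 ± 0.153 FPKM. Mutations of Col4a3, Col4a4 or Col4a5 cause Alport syndrome in humans. Col4a4 reached 1 FPKM in some libraries and Col4a3 in none, with a highest value of 0.898 FPKM. The linker Nid1 was at 0.165 ± 0.031 FPKM and its paralog Nid2 at 4.33 ± 0.39 FPKM.

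**Figure D4:**
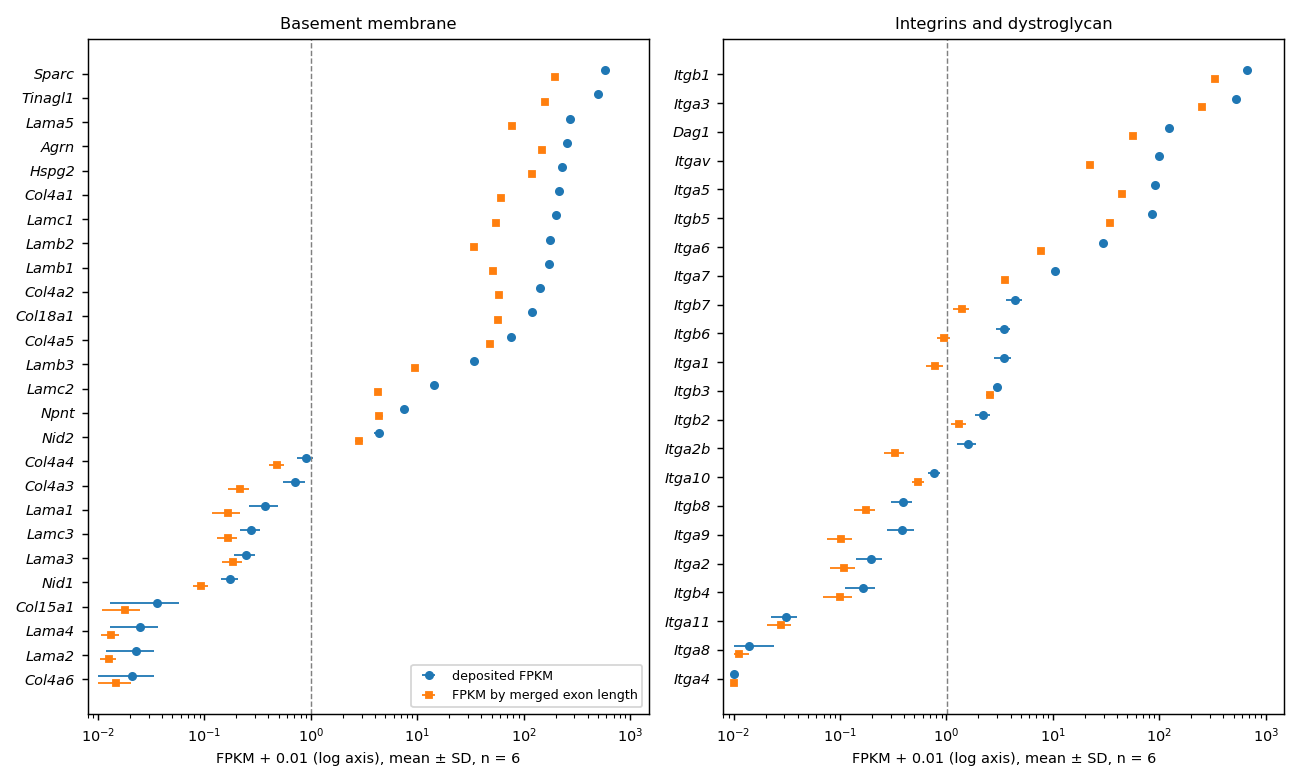
Mean ± SD over the 6 vector libraries (horizontal axis, FPKM + 0.01, log axis) of 26 basement membrane genes and of 22 integrins and dystroglycan, with the deposited FPKM as circles and FPKM by merged exon length as squares; the dashed line marks 1 FPKM. Col4a1, Col4a2 and Col4a5 lie far above Col4a3 and Col4a4 on either scale, and Itgb1 and Itga3 lead the integrins.

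The receptors for this matrix were expressed with it. Integrin α3β1, the main laminin receptor of podocytes, had its chains Itga3 at 528 ± 13.8 FPKM and Itgb1 at 668 ± 14.2 FPKM. Dystroglycan (Dag1) was at 125 ± 2.02 FPKM, and Itgav and the fibronectin receptor chain Itga5 were at 98.8 ± 2.20 and 90.9 ± 3.24 FPKM. Of 22 genes in this list, 14 were expressed, or 63.6% beside the 47.7% of all protein-coding genes, and 10 with merged exon lengths. Itga8, a receptor chain of mesangial cells, had 2 counts, and Itga4 had 0.

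Among 35 interstitial matrix genes 18 were expressed, or 51.4% beside the 47.7% of all protein-coding genes, with a median of 1.31 FPKM. Fn1 was followed by the matricellular genes Ccn1 (639 ± 23.0 FPKM), Thbs1 (469 ± 6.66 FPKM) and Ccn2 (435 ± 16.2 FPKM), then Fbln2 (370 ± 12.6 FPKM). Ccn1, Ccn2 and Thbs1 are known targets of YAP and of TGF-beta. Fibrillar collagen V was present through Col5a2 at 157 ± 4.04 FPKM and Col5a1 at 63.1 ± 1.62 FPKM, but collagen I was uneven, with Col1a1 at 16.3 ± 0.90 FPKM and Col1a2 near 0.

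Of 30 matrix enzymes and inhibitors, 26 were expressed, with a median of 50.2 FPKM. The collagen chaperone Serpinh1 was at 1067 ± 16.2 FPKM and the prolyl hydroxylase subunit P4hb at 742 ± 11.6 FPKM. The protease inhibitor Timp2 was at 262 ± 7.67 FPKM and the plasminogen activator Plat at 109 ± 3.07 FPKM. Timp4 had 0 counts.

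Receptor tyrosine kinases for survival and motility signals stood high. Axl, the receptor for Gas6, had 545 FPKM in the lowest library, a median of 554 and 557 in the highest. Epha2 was at 334 ± 13.5 FPKM, Met at 128 ± 2.50 FPKM, Igf1r at 78.6 ± 1.69 FPKM and Egfr at 44.0 ± 1.60 FPKM. The insulin receptor Insr was at 11.8 ± 0.51 FPKM. Of 38 growth factor receptors 28 were expressed, or 73.7% beside the 47.7% of all protein-coding genes, with a median of 12.8 FPKM. Kit, Erbb4 and Ror2 had 0 counts. Pdgfrb, at 3.44 ± 0.31 FPKM, was expressed and Pdgfra was not.

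Among hormone and small-molecule receptors 22 of 41 were expressed, or 53.7% beside the 47.7% of all protein-coding genes, with a median of 1.49 FPKM. The thrombin receptor F2r was at 116 ± 3.64 FPKM and the protease-activated receptor F2rl1 at 81.7 ± 1.25 FPKM. The glucocorticoid receptor Nr3c1, the target of the standard drug for nephrotic syndrome, was at 38.9 ± 1.38 FPKM, and the retinoic acid receptor Rarg at 48.0 ± 1.88 FPKM. The mineralocorticoid receptor Nr3c2 was at 1.501 ± 0.16 FPKM.

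The receptors of angiotensin and endothelin, whose blockade is used in kidney disease, were not detected. Agtr1b, Agtr2, Ednra and Ednrb had 0 counts and Agtr1a had 2 in all. Among 14 channels 9 were expressed, or 64.3% beside the 47.7% of all protein-coding genes. They were led by the stretch channel Piezo1 at 162 ± 3.53 FPKM, Trpv4 at 48.3 ± 1.17 FPKM and Trpm7 at 47.2 ± 1.45 FPKM. Trpc4 and Trpc6 had 0 counts, Trpc5 had 36, and Trpc1 was at 2.46 ± 0.32 FPKM.

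The cells transcribed genes of interferon signalling and of innate sensing. All 13 interferon signalling genes were expressed, with a median of 26.6 FPKM, from Jak1 at 208 ± 4.06 FPKM and Irf7 at 64.9 ± 2.05 FPKM down to Irf5 at 3.53 ± 0.41 FPKM. The interferon gamma receptor Ifngr1 was at 142 ± 5.47 FPKM and the type I receptor Ifnar1 at 46.3 ± 1.65 FPKM. Of 28 innate sensors and adaptors 17 were expressed, or 60.7% beside the 47.7% of all protein-coding genes. The RNA sensors Eif2ak2 (PKR) and Ddx58 (RIG-I) were at 95.3 ± 6.08 and 74.6 ± 2.21 FPKM. The DNA pathway was present as Cgas at 13.5 ± 0.57 FPKM and Tmem173, which encodes STING, at 31.1 ± 1.495 FPKM.

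Toll-like receptors were led by Tlr4 at 15.5 ± 1.18 FPKM, then Tlr3 at 8.05 ± 0.95 FPKM and Tlr2 at 5.39 ± 0.73 FPKM. Tlr8 and Tlr9 had 0 counts. Inflammasome genes were low: Nlrp3 had 2 counts, Pycard was at 0.127 ± 0.073 FPKM and Casp1 at 0.653 ± 0.141 FPKM.

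Genes known to be induced by interferon were expressed at this baseline. Of 20 such effectors 19 reached the threshold, with a median of 23.4 FPKM, and Mx1 alone did not, at 0.346 ± 0.090 FPKM. Bst2 (tetherin) ran from 579 to 643 FPKM with a median of 626. Ifitm3, which blocks viral entry, ran from 312 to 341 FPKM, median 331, and Isg15, a ubiquitin-like modifier, from 204 to 224 FPKM, median 215. Ifnb1 itself had 15 counts in all. Whether the plasmid DNA or the transfection had a part in these levels was not tested, since each of the 6 libraries had both. Members of the Ifit3, Oas1 and H2 families have near-identical copies that may share reads.

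The promoters of 4 abundant immune genes that hold a motif known from interferon-induced genes are given as examples. The core of the interferon-stimulated response element was searched as GAAANNGAAA on both strands, and matches are printed in capitals. The windows are from RefSeq (GRCm38.p6), 5′ to 3′ on the gene's strand: Isg15 at chr4:156200769-156201068 (minus), Ifitm3 at chr7:141010695-141010994 (minus), Cxcl10 at chr5:92348840-92349139 (minus) and B2m at chr2:122147437-122147736 (plus). Isg15 has 3 matches that overlap each other, Ifitm3 has 2, and Cxcl10 and B2m have 1 each.
Isg15: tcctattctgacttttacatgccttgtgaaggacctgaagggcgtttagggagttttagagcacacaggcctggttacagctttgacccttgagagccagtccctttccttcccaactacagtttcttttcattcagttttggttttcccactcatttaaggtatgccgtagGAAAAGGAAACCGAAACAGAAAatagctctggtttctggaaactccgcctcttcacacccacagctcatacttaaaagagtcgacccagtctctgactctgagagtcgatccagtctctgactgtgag
Ifitm3: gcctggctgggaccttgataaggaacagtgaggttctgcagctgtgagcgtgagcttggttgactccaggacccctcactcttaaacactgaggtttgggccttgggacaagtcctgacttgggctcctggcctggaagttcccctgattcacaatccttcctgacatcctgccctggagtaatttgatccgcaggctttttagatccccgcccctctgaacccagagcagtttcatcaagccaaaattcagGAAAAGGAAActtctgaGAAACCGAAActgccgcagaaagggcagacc
Cxcl10: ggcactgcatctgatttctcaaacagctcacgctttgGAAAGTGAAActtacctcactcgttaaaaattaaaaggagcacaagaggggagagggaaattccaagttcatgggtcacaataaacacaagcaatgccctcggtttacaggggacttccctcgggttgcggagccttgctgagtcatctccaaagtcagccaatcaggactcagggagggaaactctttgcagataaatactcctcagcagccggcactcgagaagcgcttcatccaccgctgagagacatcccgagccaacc
B2m: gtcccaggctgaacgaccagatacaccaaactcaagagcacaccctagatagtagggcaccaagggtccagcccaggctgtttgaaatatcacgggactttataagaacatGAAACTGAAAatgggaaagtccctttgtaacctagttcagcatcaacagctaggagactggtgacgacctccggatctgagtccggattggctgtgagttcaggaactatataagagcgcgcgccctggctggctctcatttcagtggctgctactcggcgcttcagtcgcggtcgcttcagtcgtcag

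The motif was present in 10 of the 17 interferon effectors with a window, or 58.8%, counting a gene once if any of its windows held a match. Counted by window, it was present in 3.44% of all 32851 windows of the same length. Among the 6608 expressed protein-coding genes with a single window it was present in 3.04%. The genes whose windows are printed all hold a match, but Mif, Csf1, H2-K1, H2-D1 and Lgals3bp, also abundant, had none. The share covers the effector list only. No share was computed for the antigen presentation and cytokine lists, which hold B2m and Cxcl10. A match describes these letters and is not evidence of binding.

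**Figure D5:**
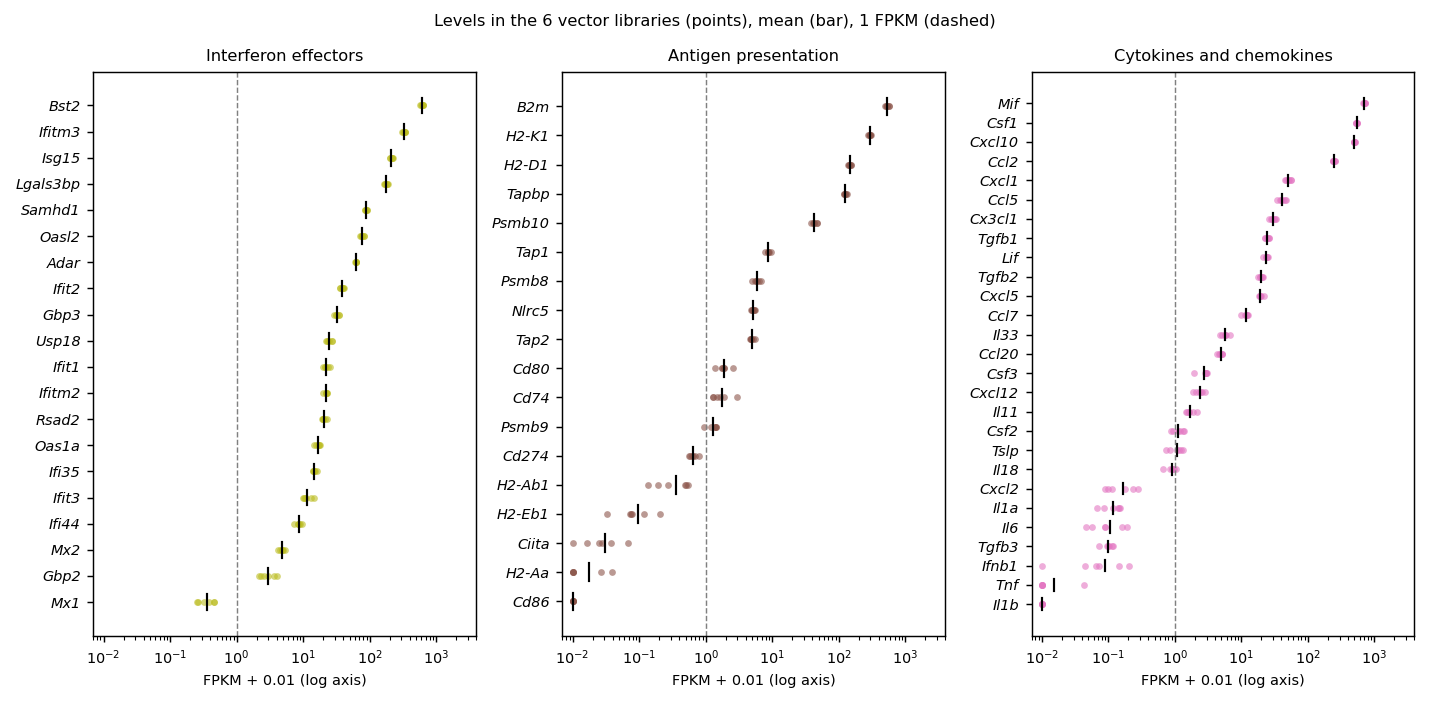
Levels (horizontal axis, FPKM + 0.01, log axis) of interferon effectors, antigen presentation genes, and cytokines and chemokines in the 6 vector libraries (points; bar, mean; dashed line, 1 FPKM). All effectors but Mx1 lie above 1 FPKM, class I genes B2m, H2-K1 and H2-D1 lie above 100 FPKM, and class II genes, Il1b, Tnf and Il6 lie at or near 0.

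Antigen presentation was of the class I kind. B2m was at 538 ± 29.2 FPKM, H2-K1 at 292 ± 10.1 FPKM, H2-D1 at 146 ± 4.52 FPKM and the loading factor Tapbp at 125 ± 5.51 FPKM. The peptide transporter chains Tap1 and Tap2 were lower, at 8.72 ± 0.52 and 4.94 ± 0.28 FPKM. Class II chains H2-Ab1 (69 counts), H2-Eb1 (24 counts) and H2-Aa (3 counts) and their regulator Ciita (17 counts) were not expressed. Cd86 had 0 counts, while Cd80 was expressed at 1.87 FPKM. In all, 11 of 18 genes of this list were expressed, or 61.1% beside the 47.7% of all protein-coding genes. With merged exon lengths 9 were.

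Of 27 cytokines and chemokines 17 were expressed, or 63.0% beside the 47.7% of all protein-coding genes. The list median was 4.86 FPKM, and levels differed widely. Cxcl10, which draws T cells, ran from 492 to 515 FPKM with a median of 498, Ccl2, which draws monocytes, from 238 to 255 FPKM with a median of 243, and Csf1, the macrophage growth factor, from 532 to 555 FPKM with a median of 539. The exons of Cxcl10 overlap those of Art3. Mif was at 706 ± 16.4 FPKM and the neutrophil chemokine Cxcl1 at 51.1 ± 4.57 FPKM. Other chemokines were lower, such as Cx3cl1 at 29.8 ± 2.79 FPKM, Ccl20 at 4.86 ± 0.37 FPKM and Cxcl12 at 2.34 ± 0.33 FPKM. Classical inflammatory cytokines were at or near 0, with Il1b at 0 counts, Tnf at 2, Il6 at 31 and Il1a at 52.

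Receptors for such signals were common, with 21 of 28 cytokine receptors expressed, or 75% beside the 47.7% of all protein-coding genes. Tnfrsf12a, the receptor of TWEAK, was at 235 ± 4.59 FPKM, the shared subunit Il6st at 207 ± 2.71 FPKM and the TNF receptor Tnfrsf1a at 85.5 ± 1.95 FPKM. Il6ra, the subunit that gives Il6st its specificity for IL-6, was below the threshold in part of the libraries, at 0.871 ± 0.095 FPKM. Of 14 complement genes 4 were expressed, and 2 with merged exon lengths or at a threshold of 2 FPKM. The 4 were Clu at 53.7 ± 5.37 FPKM, C3 at 6.37 ± 1.64 FPKM, and the regulators Cd59a and Cd55 at 1.45 ± 0.36 and 1.43 ± 0.21 FPKM.

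For 45 genes whose mutation is linked to nephrotic syndrome or inherited glomerular disease in humans, the median was 20.7 FPKM. Of these, 32 were expressed, or 71.1% beside the 47.7% of all protein-coding genes. They include the actin and adhesion genes named above, Dlc1 (142 ± 4.53 FPKM), and the nucleoporins Nup93 (133 ± 2.56 FPKM), Nup205 (83.3 ± 2.57 FPKM) and Nup107 (74.3 ± 1.23 FPKM). The 13 others include Nphs1, Wt1, Trpc6, Ptpro, Plce1, Lmx1b, Crb2 (46 counts), Kank4, Col4a3 and Col4a4.

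Genes of the cell cycle were expressed in 21 of 22 cases, with a median of 138 FPKM. Top2a was at 437 ± 7.23 FPKM, Pcna at 316 ± 7.76 FPKM, Cdk4 at 311 ± 3.49 FPKM and Ccnd1 at 281 ± 9.03 FPKM. The proliferation antigen Mki67 was at 129 ± 3.97 FPKM. The inhibitors Cdkn2a (185 ± 8.25 FPKM), Trp53 (172 ± 8.005 FPKM) and Cdkn1a (161 ± 6.49 FPKM) were abundant in the same libraries. Cdkn1c, which marks resting podocytes in the kidney, was the member below the threshold at 0.573 ± 0.115 FPKM.

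Hox genes record the body position a cell came from. Among the 39 Hox genes 26 were expressed, or 66.7% beside the 47.7% of all protein-coding genes. Summed levels were 103 ± 4.16 FPKM for the b cluster, 68.4 ± 1.99 FPKM for c, 49.0 ± 1.49 FPKM for a and 6.19 ± 0.51 FPKM for d. The highest of each cluster were Hoxb9 (38.7 ± 0.82 FPKM), Hoxc6 (18.2 ± 1.29 FPKM), Hoxa9 (13.0 ± 0.57 FPKM) and Hoxd8 (4.40 ± 0.44 FPKM). Hoxd10, Hoxd11, Hoxd12, Hoxd13 and Hoxa11, which pattern distal limb and, in part, the embryonic kidney, had 0 counts.

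Xist, the noncoding RNA of the inactive X, was at 222 ± 4.94 FPKM, and Ddx3y, Uty, Kdm5d and Eif2s3y of the Y chromosome had 0 counts in all 6 libraries. Xist shares exon positions with its antisense partner Tsix. Of 12 imprinted genes 4 were expressed, with Peg3 at 132 ± 1.96 FPKM and Grb10 at 114 ± 2.52 FPKM, while Igf2, Dlk1, Meg3 and Snrpn had 0 counts and H19 had 2.

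Pairs of related genes were compared within each library. For 14 pairs the log2 ratio of FPKM + 0.1 was tested by an exact two-sided sign-flip permutation test over the 6 libraries, which cannot give a p below 0.03125. Of these, 13 pairs had the same order in all 6 libraries and reached that p (0.0337 after Benjamini-Hochberg adjustment over the 14). Any pair with the same order in all 6 libraries reaches it, whatever the size of the difference. The p thus states only that the libraries, which may be technical repeats, had the same order. Itga3 exceeded Itga6 by 4.16 ± 0.05 on the log2 scale, Tnfrsf1a exceeded Tnfrsf1b by 2.41 ± 0.11, and Ifngr1 exceeded Ifnar1 by 1.62 ± 0.08. Col4a1 exceeded Col4a5 by 1.49 ± 0.04, and by 0.35 with merged exon lengths. The difference of Egfr to Met was -1.54 ± 0.05, and that of Tlr3 to Tlr4 was -0.94 ± 0.15.

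Zeb1 exceeded Snai2 by 1.66 ± 0.14 with the deposited lengths, but with merged exon lengths the difference was -0.88, so this order rests on the length used. Among the others, Cdh2 exceeded Cdh1, Vim exceeded Krt18, Krt7 exceeded Krt18, Lama5 exceeded Lama1, Pdgfrb exceeded Pdgfra and H2-D1 exceeded H2-Ab1 with each of the lengths tried. In each of these 6 pairs the lower gene averaged under 1 FPKM, so no ratio is given.

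The levels were reproducible between libraries to a degree set by abundance. The common biological coefficient of variation was 4.82% over 14102 genes. Estimated gene by gene, the coefficient had a median of 18.4% for genes under 1 CPM and 12.5% from 1 to 10 CPM. That median was 4.52% from 10 to 100 CPM, 3.13% from 100 to 1000 CPM and 2.95% above. A difference of a few percent between libraries is thus within the spread for most markers named, and values under 1 FPKM are known only roughly.

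The 10 most variable genes with at least 10 CPM were Atp6v1c1, Rps6kb2, Rad9a, Rps27a, Rps27, Rps27rt, Rpl7a, Rpl17, Sumo2 and Plk4. Several are ribosomal protein genes, which have many pseudogenes. Atp6v1c1, a subunit of the vacuolar proton pump, ran from 4.81 CPM in replicate 6 to 47.1 CPM in replicate 4. Rps27 and its near-identical copy Rps27rt varied in opposite ways: replicate 5 had the lowest Rps27 and the highest Rps27rt, and replicate 3 the reverse. Their coefficients of variation were 35.4% and 46.6%, and that of their sum was 5.73%, at 76.9 ± 4.41 CPM.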

How the data were processed

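Polyadenylated RNA of MPC5 cells was sequenced, and the authors deposited a table of whole-number read counts and a matching one of FPKM values. HISAT2, Bowtie2, featureCounts, Picard, SAMtools and edgeR appear, per the submitters' processing notes, with no version or role. Not given in the sources used here were the genome build, annotation, strand setting and handling of reads with several matches. Each deposited FPKM equals count over library total over gene length, and the lengths were compared with GENCODE M21. Of the 12 library columns in each table, the 6 of the Sparc group were not used.

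Symbols matched 55141 of 55487 IDs, and IDs without one held at most 0.0326% of a library's counts. Depth was 33051035 to 47296258 counts, so 3 counts equal 0.0634 to 0.0908 CPM in single libraries. Of counts from 1 to 10, 56.5% were even, so some read pairs may add 2 counts. Intervals and floors cover counting error only, since reads carry no molecular identifiers. Dispersions came from edgeR 4.0.16 in R 4.3.3 with TMM factors, filterByExpr and an intercept-only design, and from DESeq2 1.42.0 as an alternative. Gene pairs were compared on log2(FPKM + 0.1). The procedure was tested on simulated data. Alternatives covered thresholds, CPM, normalization, filters, pseudocounts and leaving out each library, and, chosen after seeing the data, merged exon and longest transcript lengths.

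Genes named were 9 set markers, the 20 highest by mean FPKM (no predicted genes, Rik genes or pseudogenes), the 5 highest and those under 3 counts of each list, both genes of each pair, the 10 most variable, and the highest Hox gene per cluster. Further list members and genes named by CPM were chosen after their values were seen. Some genes that the rule takes are not reported here. The members and lists were chosen with earlier results of these data known. Of the list genes, 196 overlap exons of another M21 gene, and without a stated strand setting such overlaps stay uncertain. RefSeq promoter windows were matched by symbol and held 467 of the 629 list genes.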

Additional observations from a re-analysis of the deposited data

Results flagged for a closer look

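Within the 6 libraries 199 values were tested, made up of named gene levels and of library measures such as total counts. In 11, all of them gene levels, the highest or lowest library stood apart. There its gap to the nearest other, over the whole range (Dixon's ratio), exceeded the 95% critical value for 6 samples. Chance flags about 1 in 20. Replicate 1 was the library concerned in 6 of the 11. It had the highest Cd24a (489 FPKM, others 441 to 459), Met (133 FPKM, others 126 to 129), C3 (9.56 FPKM, others 5.17 to 6.49) and Lama1 (0.592 FPKM, others 0.296 to 0.367). It also had the lowest F11r (60.6 FPKM, others 67.5 to 69.6) and Thbs1 (456 FPKM, others 469 to 474). Replicate 6 had the lowest Ehd3 (2.42 FPKM, others 2.71 to 2.87) and Mif (673.9 FPKM, others 707 to 720.2), and the highest Csf1r (4.78 FPKM, others 3.70 to 4.09). Replicate 5 had the lowest Jak1 (200.3 FPKM, others 209 to 211) and Rps27 (28.1 FPKM, others 83.7 to 117).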

How the results depend on the processing

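The count of genes expressed at baseline (11800) stayed between 10811 and 12808 under the other thresholds and lengths, and between 11831 and 11849 when a library was left out. The list members expressed (380) ranged from 347 with merged exon lengths to 404 at 1 CPM, and from 380 to 381 without a library. The share of counts in the 10 most abundant genes became 5.63% as a share of summed FPKM and 3.71% without mitochondrial genes, and ran from 4.05% to 4.06% without a library. The spread between libraries (4.82%) became 4.93% with no filter on low counts and 5.32% with DESeq2, and ran from 4.73% to 4.94% without a library.

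Of the ordered gene pairs, 13 passed in the main analysis and 13 to 14 under the other scales, but 0 whichever library was left out, because 5 libraries cannot give a p under 0.05. Orders reversed in these cases: for pair Zeb1 over Snai2 the log2 difference became -0.88 with merged exon lengths and -0.0701 with the longest transcript; for pair Lamb1 over Lamb2 it became 1.29 in CPM, 0.58 with merged exon lengths and 1.25 with the longest transcript. These follow from the lengths alone. Of 192 named levels, 168 moved by more than 1 SD with merged exon lengths and 159 with the longest transcript.

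No paired analysis was possible because a single group is described. Depth limits genes under about 1 CPM, where the median of the gene-by-gene variation between libraries was 18.4%.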
